A study of Rattus norvegicus with 13 samples.

Results

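The genes described here are the ligands of the vascular endothelial growth factor (VEGF) and angiopoietin families and their receptors, measured in the left ventricle of pregnant rats. There are 10 of them: the ligands *Vegfa*, *Vegfb*, *Pgf*, *Angpt1* and *Angpt2*, and the receptors *Kdr*, *Flt1*, *Nrp1*, *Tek* and *Tie1*. They were chosen by gene symbol and not by a cut on measured values, but with earlier results of these data known. All 10 were on the array, out of 14217 genes with a probe set of their own. A probe set is the group of short probes that reads one transcript. The 10 genes had 16 such probe sets among 31042 tested, and the brightest of each gene is described first.

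The rats were female Sprague Dawley animals in pregnancy. The 5 control rats drank plain water, 4 methionine-fed (Met-fed) rats drank water with L-methionine at 9 g/L, and 4 L-NAME-fed (L-NAME) rats drank water with L-NAME at 1 g/L. By the labels, the water was given on days 1 to 20, and hearts were taken on day 20 or 21. Methionine loading raises plasma homocysteine, and L-NAME inhibits the nitric oxide synthases. The 3 groups share strain, chow and pregnancy, and non-pregnant rats are not among the arrays. The study's methods describe rats in repeated pregnancies, with methionine given from the start of the earliest pregnancy until death. The labels do not give parity, and they differ from the methods in treatment length, range of harvest days and number of control arrays. The parity of these rats and the length of their treatment are therefore not settled here. Values are log2 of the MAS5 signal, a brightness on a linear scale, on 13 Affymetrix arrays. Replicates are separate samples by their labels, and the p-values measure the spread between these samples.

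VEGF-A binds the tyrosine kinase receptors encoded by *Kdr* (VEGFR-2) and *Flt1* (VEGFR-1), with the neuropilin encoded by *Nrp1* as a co-receptor. VEGFR-2 carries most of the signal for endothelial growth, whereas VEGFR-1 binds VEGF-A tightly and also exists as a secreted form that captures ligand, and VEGF-B and placental growth factor bind VEGFR-1 but not VEGFR-2. Angiopoietin-1 activates the receptor encoded by *Tek* (Tie2) and keeps vessels quiescent, angiopoietin-2 can oppose it, and Tie1 is the related receptor without a ligand of this family of its own. In the heart, cardiomyocytes are a main source of VEGF-A and VEGF-B, mural cells make angiopoietin-1, and the receptors sit mostly on endothelial cells.

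Promoter sequence was at hand for 7 of the 10 genes, in 8 entries of RefSeq on build GRCr8, each from 250 bases before to 50 bases after the transcription start. The 4 below belong to the 3 receptors with the smallest p-values between Met-fed and control rats (*Flt1*, *Tie1*, *Kdr*) and to the ligand with the largest difference between L-NAME and control rats (*Vegfb*). Capitals mark GGAAG or its reverse complement CTTCC, a core of the sites bound by ETS factors, which are prominent in endothelial genes.
Flt1, chr12:12333180-12333479, strand +: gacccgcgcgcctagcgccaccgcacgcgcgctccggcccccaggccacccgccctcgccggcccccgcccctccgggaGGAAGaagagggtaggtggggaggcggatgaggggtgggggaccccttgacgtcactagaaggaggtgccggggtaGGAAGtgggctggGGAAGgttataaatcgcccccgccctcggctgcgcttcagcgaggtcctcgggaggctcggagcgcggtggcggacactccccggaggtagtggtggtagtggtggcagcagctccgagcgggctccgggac
Tie1, chr5:137304932-137305231, strand -: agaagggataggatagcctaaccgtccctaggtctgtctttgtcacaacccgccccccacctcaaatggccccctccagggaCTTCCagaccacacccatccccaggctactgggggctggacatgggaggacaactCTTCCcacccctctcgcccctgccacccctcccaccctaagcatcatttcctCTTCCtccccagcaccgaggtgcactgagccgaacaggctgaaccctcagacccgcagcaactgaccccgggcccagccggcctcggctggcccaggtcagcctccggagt
Kdr, chr14:32571813-32572112, strand +: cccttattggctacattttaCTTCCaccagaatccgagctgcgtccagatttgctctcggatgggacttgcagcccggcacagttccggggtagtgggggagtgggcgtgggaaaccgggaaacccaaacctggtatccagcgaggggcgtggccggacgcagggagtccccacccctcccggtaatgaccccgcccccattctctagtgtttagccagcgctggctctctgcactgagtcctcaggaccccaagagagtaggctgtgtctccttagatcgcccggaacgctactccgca
Vegfb, chr1:213607103-213607402, strand -: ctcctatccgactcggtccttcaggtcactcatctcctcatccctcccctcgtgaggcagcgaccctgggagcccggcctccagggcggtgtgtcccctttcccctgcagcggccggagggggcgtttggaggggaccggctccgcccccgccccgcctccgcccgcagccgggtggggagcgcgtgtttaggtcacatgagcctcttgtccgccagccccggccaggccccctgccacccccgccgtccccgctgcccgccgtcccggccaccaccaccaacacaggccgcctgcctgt
The core occurred 3 times in the *Flt1* and *Tie1* windows, once in that of *Kdr* and not in that of *Vegfb*. Of 33469 rat promoters of the same length, 70.1% held it on either strand, so its presence sets no gene apart. The hypoxia response core ACGTG, searched on both strands as ACGTG and CACGT, was in 0 of the 8 windows, against 19.3% of all promoters. These letters being absent from 300 bases says nothing of sites elsewhere. The array's own annotation names no genome build, so probe positions are not given.

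The L-NAME arrays stood apart from the other 9. Their median signal was 34.3 to 36.9 against 25.7 to 29.2 on control and Met-fed arrays, although the trimmed mean was 150 on all 13. The 3′ over 5′ log2 signal of the beta-actin control probes, a measure of RNA or labelling length, was 2.48 ± 0.16 (SD, n = 4) on L-NAME arrays, 3.47 ± 0.14 (n = 5) on control and 3.53 ± 0.17 (n = 4) on Met-fed arrays. That of GAPDH was 0.56 ± 0.09, 1.18 ± 0.11 and 1.12 ± 0.15 in the same order, and for both transcripts L-NAME arrays did not overlap control arrays (exact permutation test, 2-sided, p = 0.0159, the smallest that 4 against 5 arrays can give). The median change of all probe sets between L-NAME and control was 0.22 on the deposited scaling, −0.21 after centring each array on its median and −0.01 after quantile normalization, and L-NAME changes are read against these medians. Between Met-fed and control it was 0.00, −0.05 and 0.01. The part of these array differences in the L-NAME results was not tested.

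Between Met-fed and control hearts, no ligand or receptor passed an adjusted p of 0.05, and neither did any of the 31042 probe sets (limma, 0% called higher and 0% lower). The 3 lowest unadjusted p-values among the 10 genes belonged to receptors, *Flt1*, *Tie1* and *Kdr*, and all 3 means were below control. At an unadjusted p under 0.05, 3 of 10 genes were lower and 0 higher, beside 4.97% of all probe sets lower and 5.72% higher. The 2 groups did not overlap for 2 of the 10 genes, both lower in Met-fed rats, where 1.55% of all probe sets were lower and 1.34% higher without overlap. The median change of the 10 genes was −0.13, with 8 means below control and 2 above. In whole tissue, fewer cells of a type and less RNA per cell cannot be told apart.

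**Figure D1:**
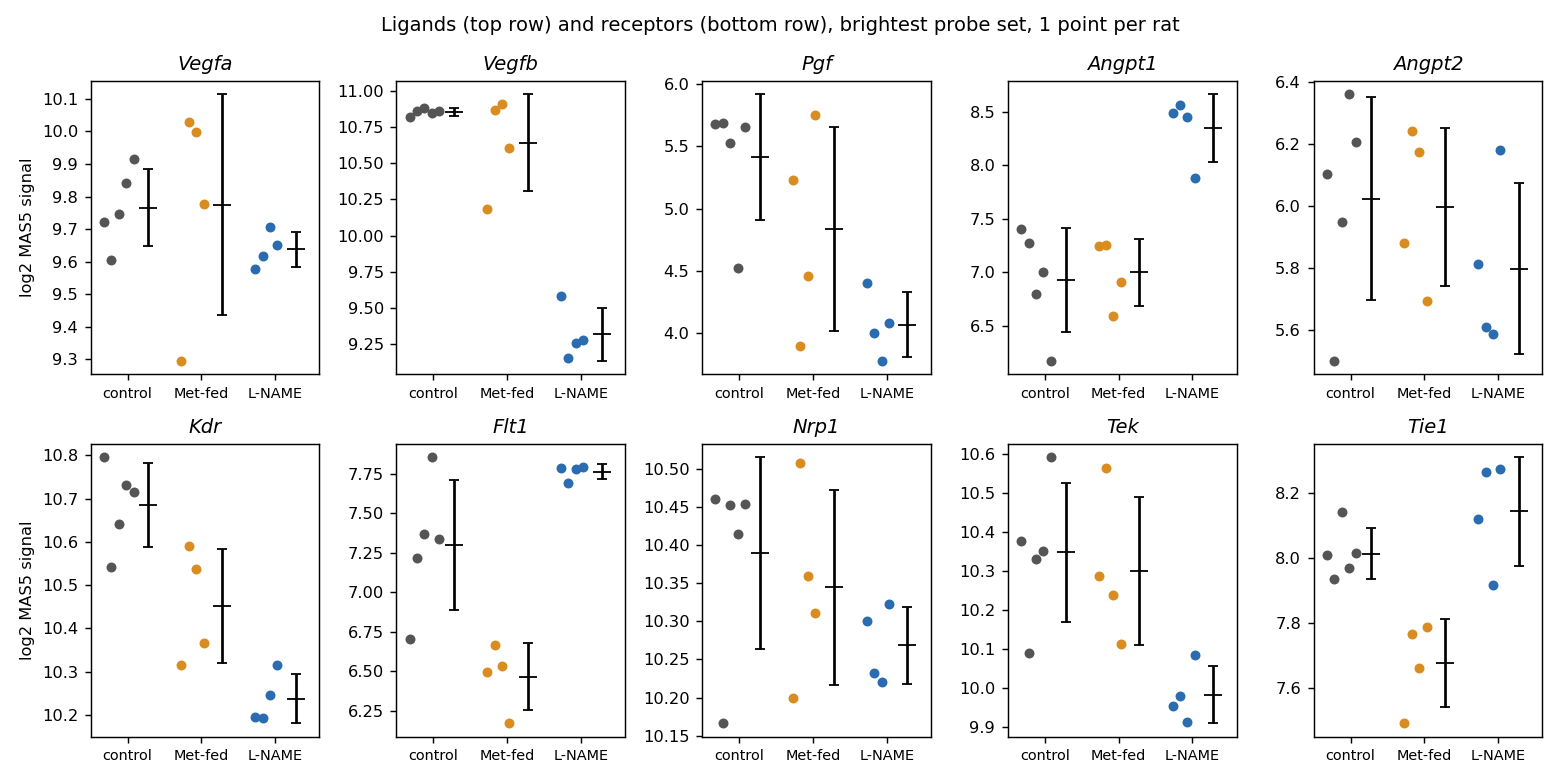
Log2 MAS5 signal (vertical axis, a separate range for each gene) of the brightest probe set of 5 ligands (top) and 5 receptors (bottom), with 1 point per rat for 5 control, 4 Met-fed and 4 L-NAME rats and bars for mean ± SD. Met-fed rats lie below all control rats for *Flt1* and *Tie1*, and L-NAME rats lie below all control rats for *Vegfb*, *Pgf*, *Kdr* and *Tek* and above them for *Angpt1*.

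*Flt1* (1377113_at), which encodes VEGFR-1, measured 6.70, 7.22, 7.37, 7.86 and 7.34 in the control rats and 6.49, 6.67, 6.53 and 6.17 in the Met-fed rats. All 4 Met-fed values lay below the lowest control, by a narrow margin, the lowest control being replicate 1. The change was −0.83 ± 0.17 (SE) on the log2 scale, 1.78-fold lower, with an unadjusted limma p of 0.000196 and an adjusted p of 0.152. The exact permutation test gave p = 0.0159, the smallest possible for this design.

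The other probe sets of *Flt1* did not move alike. Probe set 1370492_a_at was 4.37, 4.37, 4.34, 4.94 and 3.92 in control and 4.28, 3.84, 3.23 and 3.76 in Met-fed rats, a change of −0.61 ± 0.25 with overlap (adjusted p = 0.399 in limma). Probe set 1369087_at was 3.95, 4.74, 4.88, 4.65 and 4.42 in control and 4.42, 4.67, 4.48 and 4.80 in Met-fed rats, a change of 0.06 ± 0.20. Within each array, the brightest probe set exceeded 1369087_at by 2.48 to 3.21 in control and by 1.36 to 2.07 in Met-fed rats, without overlap. That difference changed by −0.90 (exact permutation p = 0.0159, adjusted over 18 such tests p = 0.0476), which is a test chosen after the data were seen. Whether the probe sets read the membrane-bound or the secreted form of VEGFR-1 is not given in the files.

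*Tie1* (1389324_at) measured 8.01, 7.94, 8.14, 7.97 and 8.02 in control and 7.49, 7.77, 7.66 and 7.79 in Met-fed rats. The groups did not overlap, and the change was −0.34 ± 0.10, 1.26-fold lower (unadjusted p = 0.00365, adjusted p = 0.29 in limma). *Kdr* (1367948_a_at), the gene of VEGFR-2, measured 10.80, 10.54, 10.64, 10.73 and 10.71 in control and 10.31, 10.59, 10.54 and 10.37 in Met-fed rats. Met-fed replicate 2 lay above control replicate 2, so these groups overlapped, and the change was −0.23 ± 0.07 (unadjusted p = 0.00606, adjusted p = 0.314). The dimmer *Kdr* probe set 1397868_at went the other way, by 0.31 ± 0.36, and its values spread over 1.76 to 3.36 in the 9 rats.

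The angiopoietin receptor *Tek* (1393067_at) and the co-receptor *Nrp1* (1373577_at) overlapped between the groups. *Tek* was 10.38, 10.09, 10.33, 10.35 and 10.59 in control and 10.29, 10.56, 10.24 and 10.11 in Met-fed rats, a change of −0.05 (95% interval −0.26 to 0.16). *Nrp1* was 10.46, 10.17, 10.45, 10.41 and 10.45 in control and 10.20, 10.51, 10.36 and 10.31 in Met-fed rats, a change of −0.05 (−0.21 to 0.12). Both intervals hold 0.

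None of the ligands differed between Met-fed and control beyond the spread of the arrays. *Vegfa* (1373807_at) was 9.72, 9.60, 9.75, 9.84 and 9.92 in control and 9.30, 10.03, 9.999 and 9.78 in Met-fed rats. Met-fed values lay both above and below all controls, with a mean change of 0.01 (−0.25 to 0.27). *Vegfb* (1380854_at) was 10.82, 10.86, 10.88, 10.85 and 10.86 in control, the tightest control group of the 10 genes, and 10.18, 10.87, 10.91 and 10.60 in Met-fed rats. Its change of −0.21 (−0.47 to 0.05) rested on Met-fed replicates 1 and 4, and was 0.04 without them, a setting chosen after seeing the data. These are the 2 Met-fed arrays with the highest median signal, 29.2 and 29.0.

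*Pgf* (1368919_at), placental growth factor, was 5.68, 5.69, 5.53, 4.52 and 5.65 in control and 5.23, 3.89, 4.46 and 5.75 in Met-fed rats. Both groups spread widely, and the change of −0.58 ± 0.34 had an interval of −1.30 to 0.14. *Angpt1* (1381487_at) was 7.41, 7.28, 6.80, 7.01 and 6.18 in control and 7.24, 7.26, 6.59 and 6.91 in Met-fed rats, a change of 0.07 (−0.41 to 0.54). *Angpt2* (1374207_at) was 6.11, 5.50, 5.95, 6.36 and 6.20 in control and 5.88, 6.24, 6.17 and 5.70 in Met-fed rats, a change of −0.03 (−0.43 to 0.38). Every Met-fed value of both angiopoietins lay inside the control range.

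Endothelial markers were read on the same arrays. Of 15 endothelial markers on the array out of 18 listed (*Cdh5*, *Robo4* and *Cd34* were not measured), all lay above the level of the Bacillus control probes, and 0 were called between Met-fed and control. Their median change was −0.04, with 6 above 0 and 9 below. The changes ranged from −0.42 for *Sox17* to 0.27 for *Sox18*, both endothelial transcription factors (adjusted p = 0.35 and 0.736 in limma). The summed signal of the 15 markers was 6721 to 7538 on control and 6368 to 6814 on Met-fed arrays. The part of endothelial content in the receptor values was not tested.

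Between L-NAME and control hearts, *Angpt1* and *Flt1* rose and *Vegfb*, *Pgf*, *Kdr* and *Tek* fell, by the brightest probe set. *Vegfb* was 2.90-fold lower and *Angpt1* 2.67-fold higher. That made 2 of 10 genes called higher and 4 lower, in a comparison where 28.7% of all probe sets were called higher and 17% lower. Among the brightest probe sets of all genes these shares were 24.2% and 25.2%. With 10 genes, no difference from these shares is drawn. Array median centring gave 1 higher and 8 lower (16% and 29.7% of all probe sets), and quantile normalization 1 and 4 (22% and 21.9%).

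**Figure D2:**
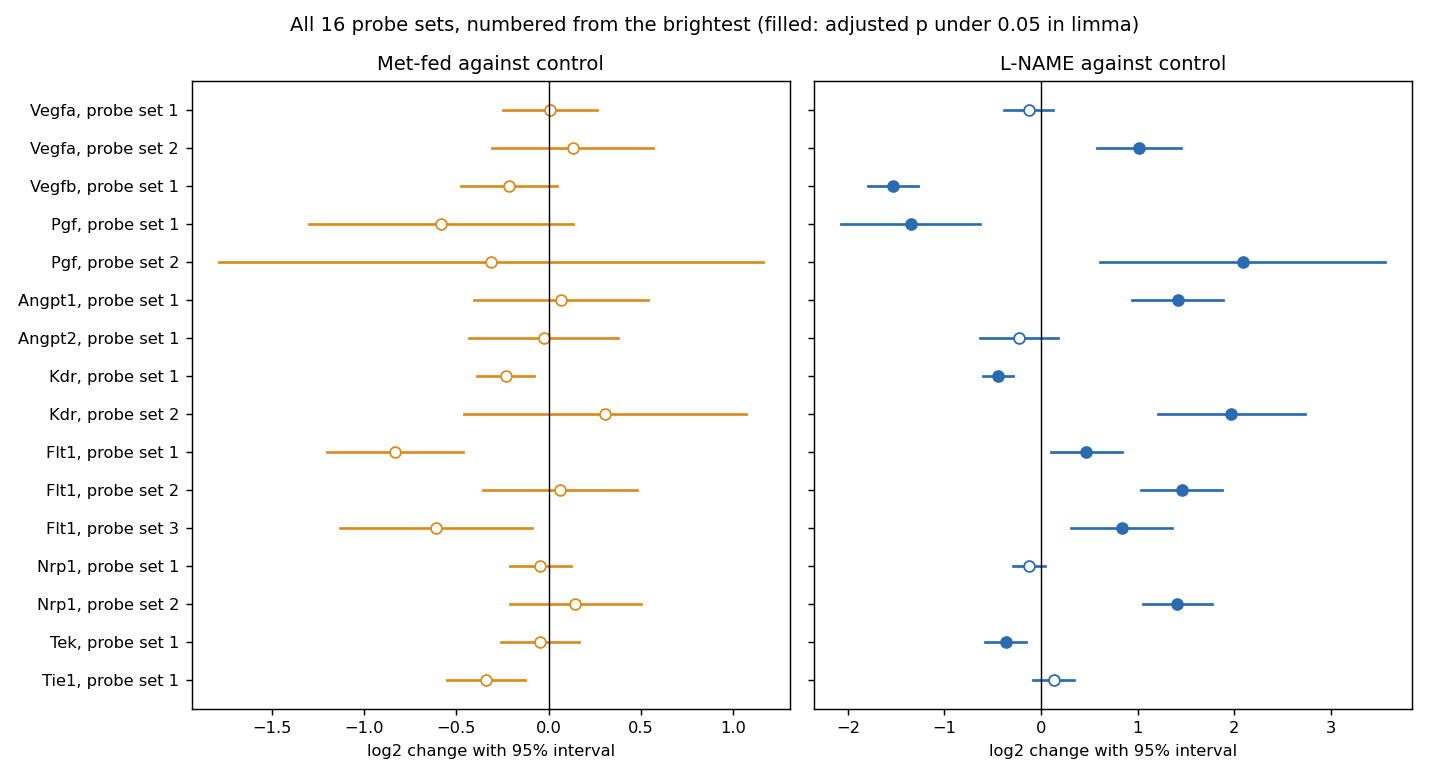
Log2 change (horizontal axis) of all 16 probe sets, with 95% intervals from limma, in Met-fed against control (left) and L-NAME against control (right) rats. Filled points have an adjusted p under 0.05, which none on the left has. On the right, the brightest probe sets of *Vegfb*, *Pgf*, *Kdr* and *Tek* lie below 0 while the dimmer probe sets lie above 0, that of *Pgf* from a control mean under the Bacillus controls.

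Among the ligands, *Vegfb* measured 9.58, 9.16, 9.25 and 9.28 in the L-NAME rats, all far below the control range of 10.82 to 10.88. The fall was 1.54 ± 0.12 on the log2 scale (adjusted p = 8.99e-08 in limma), and the change was −1.96 after centring and −1.38 after quantile normalization. *Vegfb* has a single probe set. *Vegfb* is expressed mainly in cardiomyocytes, and 8 of 9 cardiomyocyte markers were also called lower, with *Myh6* at −0.77 and a median of −0.62. Of the brightest probe sets of all genes 25.2% were called lower. After quantile normalization 3 of these markers were called lower and 1 higher. The part of cardiomyocyte content in the *Vegfb* value was not tested.

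*Angpt1* measured 8.49, 8.57, 8.45 and 7.88 in L-NAME rats, above every control value, with replicate 4 lower than the other L-NAME rats. Its rise of 1.41 ± 0.22 (adjusted p = 6.95e-05 in limma) was 0.99 after centring and 1.27 after quantile normalization. Angiopoietin-1 is made by mural cells, and 6 of 11 mural markers were called higher and 2 lower. These shares were 24.2% and 25.2% among the brightest probe sets of all genes. *Pdgfrb*, the PDGF receptor of pericytes, rose by 2.29 and *Kcnj8*, a potassium channel subunit, by 1.59, while the 2 markers called lower are not named here. After centring 6 mural markers were higher and 3 lower, beside 16% and 29.7% of all probe sets. The summed mural signal was 2741 to 3778 on L-NAME and 2403 to 2729 on control arrays. The part of mural content in the *Angpt1* value was not tested.

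*Pgf* measured 4.40, 4.00, 3.77 and 4.08 in L-NAME rats, all below the lowest control, and fell by 1.35 ± 0.34 (adjusted p = 0.00354). Control replicate 4, at 4.52, was close to the L-NAME values. *Vegfa* measured 9.58, 9.62, 9.70 and 9.65 in L-NAME rats and overlapped control, with a change of −0.13 ± 0.12 (adjusted p = 0.422). After centring its change was −0.55 and called, and after quantile normalization it was −0.00. *Angpt2* measured 5.81, 5.61, 5.59 and 6.18 and overlapped control, with a change of −0.23 ± 0.19 (adjusted p = 0.364) that was −0.65 after centring and −0.56 after quantile normalization, both called.

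Among the receptors, *Kdr* measured 10.20, 10.19, 10.25 and 10.32 in L-NAME rats, all below control. It fell by 0.45 ± 0.07, 1.36-fold (adjusted p = 0.000104 in limma), and its quantile-normalized change of −0.17 was still called (adjusted p = 0.0306). *Tek* measured 9.95, 9.98, 9.91 and 10.08, just below the lowest control of 10.09. It fell by 0.37 ± 0.10 (adjusted p = 0.00618), but its quantile-normalized change of −0.16 was not called (adjusted p = 0.171). Both genes are endothelial, and of the 15 endothelial markers 5 fell and 3 rose, beside 25.2% and 24.2% of all brightest probe sets.

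*Flt1* measured 7.79, 7.69, 7.78 and 7.79 in L-NAME rats, within the control range, since control replicate 4 reached 7.86. Its rise of 0.47 ± 0.17 passed the test narrowly (adjusted p = 0.037). It did not pass after centring, where the change was 0.04, after quantile normalization (0.30), or when any one L-NAME array or control replicate 1, 2 or 5 was left out. *Tie1* measured 8.12, 8.26, 7.92 and 8.28 and overlapped control, with a change of 0.13 ± 0.10 (adjusted p = 0.312) that became −0.29 and called after centring. *Nrp1* measured 10.30, 10.23, 10.22 and 10.32, also with overlap. Its change of −0.12 ± 0.08 (adjusted p = 0.228) was −0.55 and called after centring, and 0.15 and not called after quantile normalization.

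**Figure D3:**
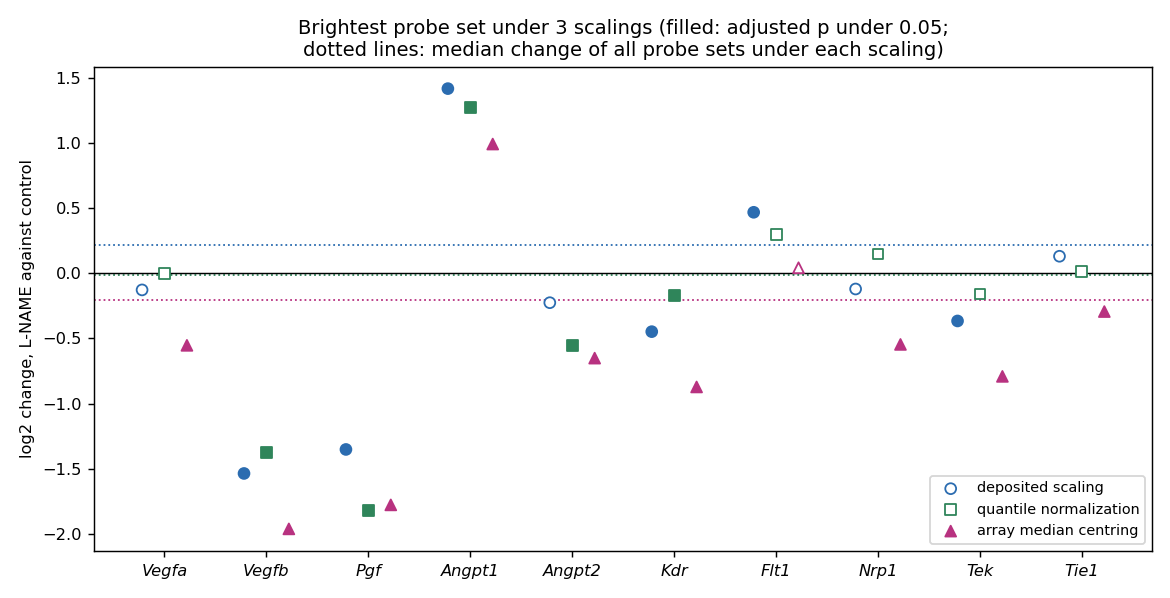
Log2 change between L-NAME and control rats (vertical axis) of the brightest probe set of each gene under the deposited scaling, quantile normalization and array median centring, with filled points at an adjusted p under 0.05 and dotted lines at the median change of all probe sets under each. *Vegfb*, *Pgf*, *Kdr* and *Angpt1* keep their direction and call under all 3, while *Tie1* and *Nrp1* change sign.

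In L-NAME rats, the dimmer probe sets of *Vegfa*, *Kdr* and *Nrp1* rose where the brightest of the same gene fell or was not called, and those of *Flt1* rose with the brightest. The rises were 1.02 for *Vegfa* (1370081_a_at), 1.97 for *Kdr*, 1.46 (1369087_at) and 0.84 (1370492_a_at) for *Flt1* and 1.41 for *Nrp1* (1370570_at). These are 5 of the 6 dimmer probe sets. Dimmer probe sets of all genes with several were called higher in 43.3% of cases and lower in 6.96%. The sixth, of *Pgf* (1368918_at), had a control mean of 0.33, under the highest Bacillus control at 1.07, and no change is given for it. The call of *Flt1* 1370492_a_at, the dimmest of its gene, was lost under both centring and quantile normalization.

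Values of the same gene within each array show how far the probe sets parted. The dimmer *Kdr* probe set measured 1.76, 2.24, 3.19, 1.97 and 3.21 in control rats and 4.71, 4.24, 4.58 and 4.25 in L-NAME rats. The brighter *Kdr* probe set therefore exceeded it by 7.45 to 9.04 in control and by 5.49 to 6.06 in L-NAME rats, a change of −2.42 in the difference. The difference changed by −1.14 for *Vegfa*, −1.53 for *Nrp1* and −0.99 for *Flt1* with 1369087_at. Each of these 4 had groups without overlap (exact permutation p = 0.0159, adjusted over 18 tests p = 0.0476). The share of all genes without overlap in this measure is not given here. Since the second-brightest probe set moved more upward in 70.7% of genes with several, these 4 are not set apart from other genes. For *Flt1* with 1370492_a_at the change was −0.37 with overlap (p = 0.111 by exact permutation). Scaling an array by a constant leaves such a difference as it is, but quantile normalization does not: it made the changes −1.69 for *Kdr*, −0.71 for *Vegfa*, −1.03 for *Nrp1* and −0.81 for *Flt1* with 1369087_at, each still without overlap, a setting added after the data were seen.

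**Figure D4:**
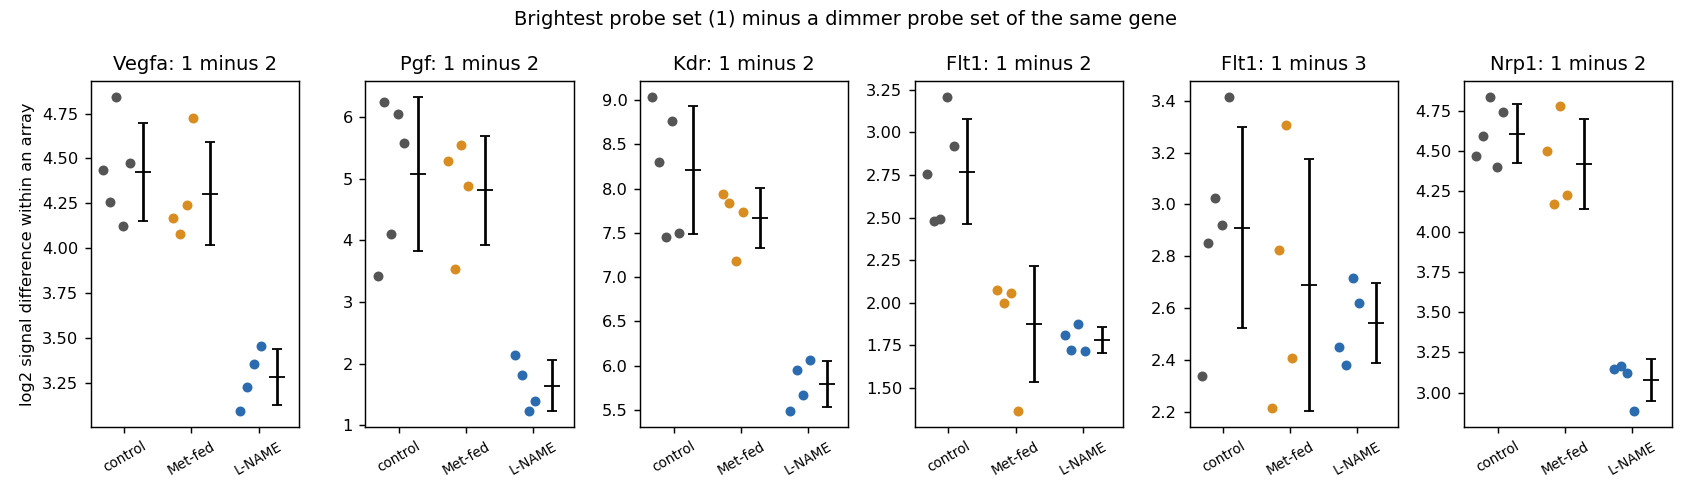
Log2 signal of the brightest probe set minus that of a dimmer probe set of the same gene within each array (vertical axis, a separate range for each pair), with 1 point per rat and bars for mean ± SD. L-NAME rats lie below all control rats in every pair except *Flt1* probe sets 1 and 3, the dimmer *Pgf* probe set being under the Bacillus controls in the control rats' mean, and Met-fed rats do so for *Flt1* probe sets 1 and 2.

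The pattern extended over the array. Of 4525 genes with several probe sets, 853 (18.9%) had probe sets called in opposite directions between L-NAME and control, and the second-brightest probe set moved more upward than the brightest in 70.7%. Between Met-fed and control that share was 56.6%. For *Vegfa*, *Kdr* and *Nrp1*, the direction between L-NAME and control thus depended on the probe set, and taking the mean of all probe sets gave 0.44 for *Vegfa*, 0.76 for *Kdr* and 0.65 for *Nrp1*. Of the 5 genes with several probe sets, only *Flt1* had all of them called in one direction, upward.

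Set against each other directly, L-NAME and Met-fed hearts differed in 6 of 10 genes. This comparison shares its arrays with the other 2 and is no separate evidence for them. *Flt1* was 1.30 ± 0.18 higher in L-NAME rats (adjusted p = 3.57e-05 in limma), *Angpt1* 1.35 ± 0.24 and *Tie1* 0.47 ± 0.11 higher, while *Vegfb* (−1.32 ± 0.13), *Tek* (−0.32 ± 0.11) and *Kdr* (−0.22 ± 0.08) were lower. Of all probe sets 25.4% were called higher and 14.9% lower, and of the brightest probe sets of all genes 21.5% and 22.5%. The 3 *Flt1* probe sets were 1.30 to 1.45 higher, each without overlap, as were 25.6% of all probe sets. Their changes after centring were 0.93 to 1.08. The *Kdr* change was 0.01 and not called after quantile normalization, that of *Tek* was −0.15 and not called, and that of *Tie1* was 0.10 and not called after centring.

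Other genes of the pathway were read from lists by the brightest probe set of each gene, and 0 genes of the 6 lists were called between Met-fed and control. Among 17 other ligands, receptors and co-receptors, the smallest Met-fed p belonged to *Ptprb*, the phosphatase that opposes Tie2, at −0.40 ± 0.09 (unadjusted p = 0.000581, adjusted p = 0.221 in limma). *Nrp2*, the neuropilin of lymphatic and venous endothelium, was 0.61 ± 0.22 higher (unadjusted p = 0.0118). *Vegfc* and *Vegfd*, the ligands of lymphatic growth, changed by 0.11 and 0.46 with adjusted p of 0.835 and 0.752, and their receptor *Flt4* by 0.01. *Epas1*, which encodes the hypoxia-inducible transcription factor subunit HIF-2α, changed by −0.29 ± 0.07 in Met-fed rats (unadjusted p = 0.00105, adjusted p = 0.234), and *Hif1a* changed by −0.05.

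In L-NAME rats, 5 of the 17 other ligands, receptors and co-receptors rose and 6 fell, beside the background of 24.2% and 25.2% for brightest probe sets. The integrin subunits *Itgav* and *Itga5*, which cooperate with VEGF receptors on the matrix, changed by −0.99 and −1.499, while the subunits *Itgb1* and *Itgb3* rose by 0.56 and 1.28, and *Ptprb* fell by 0.83. *Nrp2* rose by 1.90 and *Flt4* by 1.87, whereas the changes of *Vegfc* (0.04) and *Vegfd* (0.08) were not called. *Flt4* was dim in control rats, at 0.51 to 2.13, near the highest Bacillus control at 1.07, so the size of its rise is uncertain. The median change of this list was 0.04, beside 0.22 for all probe sets. The 2 are not alike, since all probe sets include dimmer ones, which were called higher in 43.3% of cases and lower in 6.96%.

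Signalling below the receptors split in both directions in L-NAME rats, with 15 of 35 measured genes higher and 10 lower. Its median was 0.29, beside 0.22 for all probe sets. Brightest probe sets of all genes were called higher in 24.2% of cases and lower in 25.2%. The 4 of smallest p all fell: *Rasip1* (−1.66), needed for endothelial tube formation, *Hspb1* (−1.47), an actin-binding heat shock protein, the kinase *Map2k2* (−0.96) and the GTPase *Cdc42* (−0.50). After array median centring 6 were higher and 14 lower (16% and 29.7% of all probe sets). After quantile normalization 12 were higher and 11 lower (22% and 21.9%), with a median of 0.11. *Nos3*, the endothelial nitric oxide synthase and one of the enzymes L-NAME inhibits, changed by 0.44 ± 0.31 (adjusted p = 0.268 in limma).

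Oxygen sensing had the lowest median change of the 6 pathway lists in L-NAME rats, at −0.38. Of 14 measured genes 7 were called lower and 1 higher (*Vhl*, 0.54), beside 25.2% and 24.2% of all brightest probe sets. The changes were −1.01 for *Epas1*, −0.93 and −1.05 for the prolyl hydroxylases *Egln1* and *Egln2*, which mark HIF subunits for breakdown, and −0.49 for the co-activator *Ep300*. *Epas1* measured 9.70 to 9.73 in L-NAME and 10.56 to 10.81 in control rats. *Hif1a* changed by −0.14 and was not called. After quantile normalization 7 genes were lower and 1 higher.

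Genes that hypoxia induces moved both ways, 5 of 20 higher and 7 lower in L-NAME rats, beside 24.2% and 25.2% of all brightest probe sets. *Ddit4*, an inhibitor of mTOR signalling, rose by 1.78 and *Adm*, the vasodilator adrenomedullin, by 0.79, while *Higd1a*, a mitochondrial protein, fell by 0.89 and the glycolytic *Aldoa* fell by 0.52. After quantile normalization 6 were higher and 3 lower (22% and 21.9% of all probe sets), and after centring 2 and 11 (16% and 29.7%).

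Endothelial genes that VEGF induces were 7 of 14 higher and 1 lower in L-NAME rats, with a median change of 0.68. Of all brightest probe sets 24.2% were called higher and 25.2% lower. *Pgf* (−1.35, called) and *Angpt2* (−0.23, not called) belong to this list too, but were left out of its counts and median as members. *Aplnr*, the apelin receptor, rose by 1.49, *Rcan1*, an inhibitor of calcineurin, by 1.28 and the chemokine receptor *Cxcr4* by 1.20, while *Plvap*, the diaphragm protein of fenestrae, fell by 1.54. The median was 0.26 after centring and 0.50 after quantile normalization. In Met-fed rats the median of the same list was 0.27 with 0 genes called, beside 0.00 for all probe sets.

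Of 14 measured angiogenesis inhibitors, 5 rose and 2 fell in L-NAME rats, where 24.2% of all brightest probe sets were called higher and 25.2% lower. *Serpinf1*, which encodes PEDF, rose by 1.95, the tubulin carboxypeptidase *Vash2*, a vasohibin that has been described as promoting rather than inhibiting vessel growth, by 1.71 and the metalloproteinase inhibitor *Timp3* by 0.55. *Pf4*, the platelet chemokine, fell by 1.39. After centring 2 were higher and 4 lower (16% and 29.7% of all probe sets), and after quantile normalization 4 and 2 (22% and 21.9%).

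**Figure D5:**
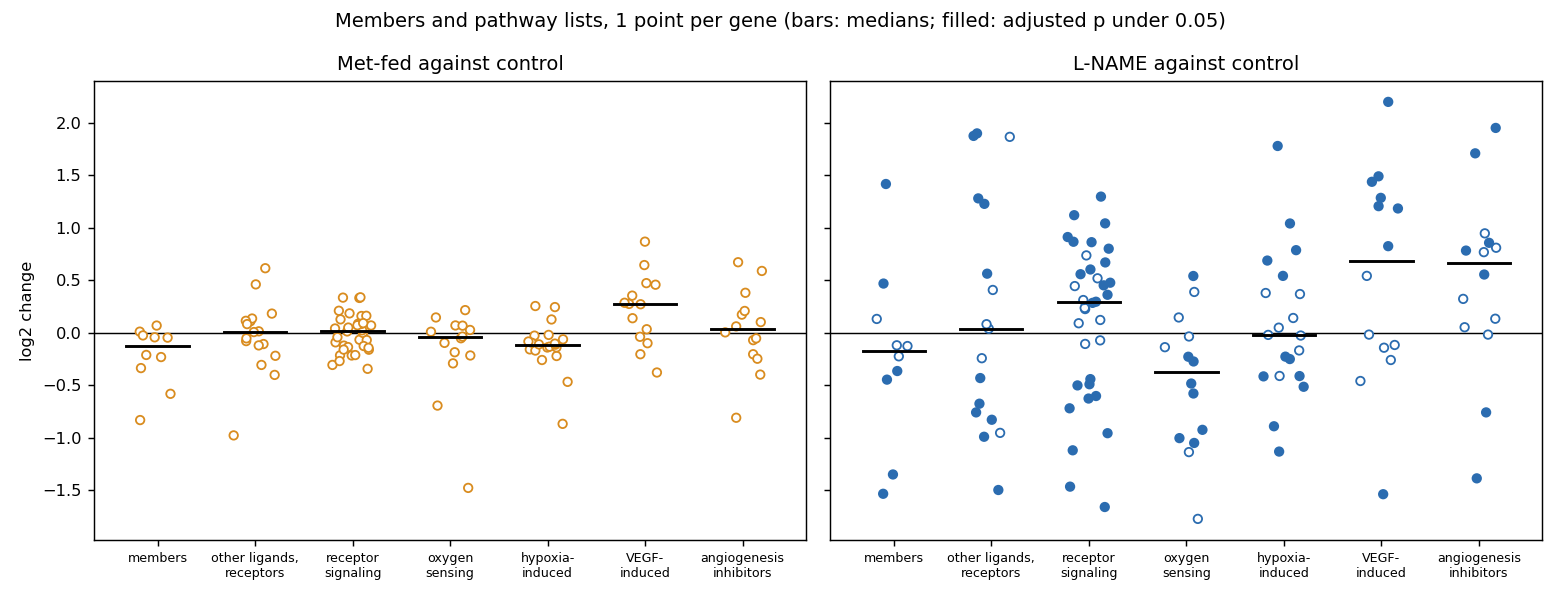
Log2 change (vertical axis) against control of the 10 genes described here and of the genes of 6 pathway lists, 1 point per gene by its brightest probe set, in Met-fed (left) and L-NAME (right) rats, with bars at the medians and filled points at an adjusted p under 0.05. No gene is called on the left, and on the right the oxygen-sensing list has the lowest median of those drawn (−0.38) and the VEGF-induced list the highest (0.68).

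Endothelial markers in L-NAME rats showed both directions. *Ecscr* (−3.40), a regulator of endothelial migration, *Vwf* (−1.02), the carrier of a clotting factor, and *Pecam1* (−0.59), an adhesion molecule of endothelial junctions, fell, while *Esam*, a junction protein, rose by 1.44 and the ETS factor *Erg* by 1.45. The summed signal of the 15 markers was 5941 to 6265, below the control range. After centring 2 markers were higher and 10 lower, where 16% and 29.7% of all probe sets were. After quantile normalization 2 were higher and 5 lower, where 22% and 21.9% of all probe sets were. Leukocyte markers were 1 higher and 5 lower of 7, fibroblast markers 0 and 2 of 8 and red cell markers 0 and 1 of 3. None of 4 atrial and 4 adipocyte markers was called. The shares among all brightest probe sets were 24.2% higher and 25.2% lower. The part of these cell types in the values of the 10 genes was not tested.

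Across the 13 arrays, after the mean of each group was removed, *Vegfa* varied most like *Casq2* (Pearson r = 0.974), the calcium-binding protein of the cardiomyocyte sarcoplasmic reticulum, *Frmd5* (0.974) and *Zmynd11* (0.967) among 11934 other probe sets of at least median signal. *Kdr* varied most like *Hspa12b* (0.925), an endothelial heat shock protein, *Lrrc10* (0.921), a cardiac protein, and *Rreb1* (0.911). Among the genes described here, *Kdr* was closest to *Nrp1* (0.829) and *Angpt2* (0.801), and *Vegfa* to *Vegfb* (0.754) and *Kdr* (0.751). For *Vegfa*, the spread within groups was largest in Met-fed rats (SD 0.34, against 0.12 in control and 0.05 in L-NAME). Met-fed replicate 1 was the lowest of all, at 9.30. The r values of *Vegfa* thus rest largely on the Met-fed arrays and do not show the cell type behind them. All these values describe 13 arrays that share tissue, platform and scaling, and no test was made of them.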

How the data were processed

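Left ventricular RNA of 13 pregnant rats was hybridised to Affymetrix rat arrays, 1 array each. The authors deposited MAS5 intensity on a linear scale (version not given in the sources used here), with a mean of 150 after trimming 2% at each end. The number of arrays limits the precision. Log2 values of 31042 probe sets, without 57 control probe sets, were fitted with limma 3.58.1 in R 4.3.3, with 1 coefficient per group over 13 arrays and a variance that follows the signal. Benjamini-Hochberg adjustment was made over all probe sets, and called means an adjusted p under 0.05. The methods' t-test was an alternative, without the variance stabilization that the study names. Its methods give 4 control arrays, not named there, and all 5 were used. Single genes were also tested by exact permutation (2-sided, scipy 1.17.1). The fit was tested on simulated data.

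The platform annotation gives 20826 probe sets 1 symbol, 436 several and 9780 none, and 20758 matched RefSeq by gene ID. Named were all 10 members and, from each list and comparison, up to 4 called genes of smallest p, with *Vegfc*, *Vegfd*, *Flt4*, *Nrp2*, *Ptprb*, *Nos3*, *Hif1a* and *Epas1* whatever their values. *Sox17*, *Sox18*, *Itgb1*, *Itgb3*, *Pecam1* and *Vhl* were added after their values were seen. The members and lists were chosen with earlier results of these data known. Alternatives were offsets of 16 and 50, centring on the array median, quantile normalization, filters at the median and above 27 Bacillus control probe sets, the compared groups alone, no variance trend, t-tests, a replicate block, arrays left out and the mean of all probe sets.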

Additional observations from a re-analysis of the deposited data

Results flagged for a closer look

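In 4 of 48 groups tested, a single array lay far from the rest of its group, where chance gives about 1 in 20. *Pgf* (1368919_at) in control replicate 4 was 4.52, against 5.53 to 5.69 in the other controls. *Nrp1* (1373577_at) in control replicate 2 was 10.17, against 10.41 to 10.46. *Angpt1* in L-NAME replicate 4 was 7.88, against 8.45 to 8.57 in the other L-NAME rats. *Flt1* (1377113_at) in L-NAME replicate 2 was 7.69, against 7.78 to 7.79, a gap that is small in size because the group is tight.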

How the results depend on the processing

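Of 1215 single values under 26 other settings, 1115 kept their direction and side of the threshold. Between Met-fed and control 0 genes were called in either direction under every setting. Between L-NAME and control, called higher were 1 gene with quantile normalization, median centring, no variance trend, either t-test or a replicate block, 5 with the mean of all probe sets, and 1 to 2 with an array left out. Where 1 was left, it was *Flt1* that was lost. Called lower were 8 with centring (29.7% of all probe sets), 2 with the mean of all probe sets and 4 with any array left out. Between L-NAME and Met-fed, 5 were higher with the mean of all probe sets. In the same comparison 7 were lower with centring, where 25.7% of all probe sets were called lower. It was 1 without variance trend or with either t-test, and 1 to 4 with an array left out (1 without L-NAME replicate 1 or 3, where *Kdr* and *Tek* were lost).

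Signs turned as follows. Between Met-fed and control, *Vegfa* was −0.049 with centring, *Kdr* 0.038 and *Nrp1* 0.050 with the mean of all probe sets, *Angpt1* −0.123, *Angpt2* 0.019 and *Tek* 0.013 with the replicate block, and without Met-fed replicates 1 and 4 together, a setting chosen after seeing the data, *Vegfb* 0.035, *Nrp1* 0.045, *Angpt1* −0.011, *Angpt2* 0.183 and *Tek* 0.052. With 1 array left out, the values ranged across 0 for *Vegfa* (−0.075 to 0.169), its dimmer probe set (−0.027 to 0.27), the dimmer *Pgf* probe set (−0.78 to 0.169), *Flt1* 1369087_at (−0.08 to 0.153), *Nrp1* (−0.101 to 0.004), *Angpt1* (−0.123 to 0.203), *Angpt2* (−0.157 to 0.074) and *Tek* (−0.136 to 0.015). With the mean of all probe sets, L-NAME against control turned for *Vegfa* (0.44), *Pgf* (0.37), *Kdr* (0.76) and *Nrp1* (0.65). L-NAME against Met-fed turned for *Vegfa* (0.37), *Pgf* (0.82), *Kdr* (0.73) and *Nrp1* (0.60). The *Pgf* means take in its dimmer probe set, under the Bacillus controls, and were not called (adjusted p = 0.561 and 0.207 in limma). *Vegfa* against Met-fed was not called either (adjusted p = 0.0672). Quantile normalization turned *Nrp1* against control (0.15) and *Kdr* (0.005) and *Nrp1* (0.15) against Met-fed, and centring turned *Tie1* against control (−0.29). The cause was not tested.

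Replicate numbers did not pair the arrays: 12 same-number pairs of deviations correlated at −0.211 to 0.236, 2 of them over 0.1, and 2 of 13 arrays correlated best with their own number. The block left the 4 lower calls between L-NAME and control and took the lower calls between L-NAME and Met-fed to 2.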
